A study of Homo sapiens with 6 samples.

Results

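The collagen chain genes are the genes that encode the polypeptide chains of the collagens, the main structural proteins of the extracellular matrix. The members were taken by name, as a list of 41 symbols, and all 41 were found among the 60664 genes of the deposited table. They were measured by RNA sequencing in SKOV3 cells, an established line of human ovarian carcinoma known for high ERBB2. In 3 libraries JUP was knocked down with a hairpin (shJUP 1, 2 and 3), and 3 libraries carried the control hairpin in cells labelled wild type (shNC 1, 2 and 3). JUP encodes plakoglobin, a protein of desmosomes and adherens junctions, and the series title places it upstream of a PDGFB and JAK-STAT axis. The comparison asks which transcripts differ with the JUP hairpin. The labels call the replicates independent and do not say how many hairpins or clones were used. Loss of JUP and other effects of its hairpin cannot be told apart here.

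Collagen chains assemble in groups, through repeats in which glycine recurs regularly, into a helix that is secreted and built into the matrix. Fibrillar collagens form the banded fibres of connective tissue, with type I the main one, type III beside it and types V and XI inside the fibre. Type IV forms the sheet of basement membranes, type VII anchors that sheet to the tissue beneath, and type VI makes beaded filaments near cells. The collagens that decorate fibrils (called FACIT, for fibril-associated collagens with interrupted helices), the short-chain network collagens and the transmembrane collagens make up the other classes. In the ovary, collagens are made by stromal cells and also by carcinoma cells.

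The genes of type IV lie in head-to-head pairs, so the stretch between their starts is shown first. In the RefSeq annotation of GRCh38.p14, COL4A1 and COL4A2 start 127 bases apart on opposite strands of chromosome 13. COL4A3 and COL4A4 start 419 bases apart on chromosome 2, and COL4A5 and COL4A6 start 380 bases apart on the X chromosome. The 250 bases upstream of COL5A1 and COL12A1 are shown because these 2 genes were called lower by DESeq2. Those of COL11A1 are shown because its level was among the most uneven between libraries. Capitals mark matches to CCAAT or its reverse complement ATTGG, to the GC box GGGCGG or CCGCCC, and to the TATA box TATAAA or TTTATA, and no matches overlap in these stretches. The first stretch is read in the direction of COL4A2 and each of the others in the direction of its gene.
COL4A1-COL4A2 shared stretch, chr13:110307158-110307283, forward strand: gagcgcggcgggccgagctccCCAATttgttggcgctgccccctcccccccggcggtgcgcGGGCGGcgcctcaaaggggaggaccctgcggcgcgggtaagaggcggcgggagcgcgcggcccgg
COL4A3 upstream, chr2:227164374-227164623, forward strand: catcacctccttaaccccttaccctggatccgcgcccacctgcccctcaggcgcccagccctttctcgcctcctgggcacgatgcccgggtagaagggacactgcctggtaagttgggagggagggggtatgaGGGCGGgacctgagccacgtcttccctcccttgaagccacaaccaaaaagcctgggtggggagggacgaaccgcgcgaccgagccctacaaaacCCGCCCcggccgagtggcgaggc
COL4A4 upstream, chr2:227164206-227164455, reverse strand: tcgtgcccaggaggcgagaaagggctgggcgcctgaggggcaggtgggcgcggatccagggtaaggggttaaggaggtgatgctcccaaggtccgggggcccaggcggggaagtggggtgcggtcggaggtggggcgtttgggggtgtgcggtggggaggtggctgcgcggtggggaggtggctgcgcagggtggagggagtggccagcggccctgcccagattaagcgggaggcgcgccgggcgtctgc
COL5A1 upstream, chr9:134641553-134641802, forward strand: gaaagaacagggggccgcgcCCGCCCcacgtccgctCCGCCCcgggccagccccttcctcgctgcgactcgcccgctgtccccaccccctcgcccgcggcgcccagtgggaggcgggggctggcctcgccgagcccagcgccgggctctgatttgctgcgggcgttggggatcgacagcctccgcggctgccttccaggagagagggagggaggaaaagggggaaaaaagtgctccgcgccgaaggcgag
COL12A1 upstream, chr6:75206054-75206303, reverse strand: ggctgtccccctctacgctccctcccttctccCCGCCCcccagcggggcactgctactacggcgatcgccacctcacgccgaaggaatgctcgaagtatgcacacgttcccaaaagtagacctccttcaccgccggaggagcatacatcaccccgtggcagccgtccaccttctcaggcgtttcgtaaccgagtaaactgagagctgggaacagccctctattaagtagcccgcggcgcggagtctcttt
COL11A1 upstream, chr1:103108523-103108772, reverse strand: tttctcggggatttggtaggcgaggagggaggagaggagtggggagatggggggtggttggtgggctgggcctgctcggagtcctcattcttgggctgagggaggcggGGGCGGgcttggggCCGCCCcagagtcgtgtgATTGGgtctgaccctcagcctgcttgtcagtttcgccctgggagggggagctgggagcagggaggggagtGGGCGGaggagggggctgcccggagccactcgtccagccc

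The 126 bases shared by COL4A1 and COL4A2 hold 1 CCAAT match and 1 GC box, and no TATA box. Among 27305 RefSeq promoters, 21.9% have a CCAAT match in the last 126 bases before the start and 34.6% a GC box. The stretch upstream of COL11A1 has 1 CCAAT match and 3 GC boxes, that of COL5A1 has 2 GC boxes and that of COL12A1 has 1. Of the 41 members 31 had a promoter entry. COL1A1, COL1A2, COL2A1, COL3A1, COL5A2, COL6A1, COL8A1, COL9A3, COL14A1 and COL22A1 had none, so the shares leave them out. In the 250 bases upstream, 9 of the 31 (29%) had a CCAAT match, against 33.0% of all promoters. A GC box was found in 17 (54.8%), against 42.3%, and a TATA box in 4 (12.9%), against 11.1%. These are matches of letters only.

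The 6 libraries held 17456121 to 19279514 estimated counts each. The targeted gene JUP stood at 39.9, 93.6 and 24.6 CPM (counts relative to the size of the library, scaled by TMM) in shJUP 1, 2 and 3, against 104, 133 and 101 CPM in shNC 1, 2 and 3. In all shJUP libraries JUP was below the lowest control, in shJUP 2 by the least. Its log2 fold change was -1.10 (SE 0.44), which edgeR's quasi-likelihood test did not call (adjusted p = 0.47). DESeq2 did not call JUP without a block for the library number (adjusted p = 0.18), and called it lower with the block (0.048). Without shJUP 2 the log2 fold change of JUP was -1.80 (adjusted p = 2.8e-09 by DESeq2, 0.16 by edgeR), without both libraries of number 2 it was -1.66 (4.9e-11 by DESeq2, 0.051 by edgeR), and without shJUP 3 it was -0.75 (0.82 by DESeq2). Of the 8 markers fixed for SKOV3 and epithelial carcinoma, 7 reached 1 CPM in some library, with ERBB2 at 2320 to 4422 CPM in shJUP, against 4224 to 6907 CPM in shNC. The transcription factor PAX8 and keratins 8, 18 and 19 were present in each library, and MUC16 had at most 12 counts. EPCAM was low, at 1.51 to 4.21 CPM in shJUP, against 1.25 to 4.62 CPM in shNC. So was WT1, at 1.55 to 3.61 CPM in shJUP, against 1.65 to 1.88 CPM in shNC. The libraries of number 2 deviated from their groups in the most similar way (r = 0.51 across genes), so calls are also given without them.

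Collagen chains made up 0.259, 0.253 and 0.189 percent of the counts of shJUP 1, 2 and 3, against 0.345, 0.427 and 0.337 percent in shNC 1, 2 and 3. The highest shJUP library thus lay below the lowest control. In bulk RNA, fewer cells with a transcript and less of it per cell cannot be told apart. All 41 members had a count in some library, and 26 passed the filter on low counts and were tested. The 8 members with a mean of at least 100 CPM were COL4A2, COL4A1, COL5A1, COL12A1, COL18A1, COL5A2, COL7A1 and COL1A1. The 20 members with a mean of at least 5 CPM appear in the plot of levels by library.

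**Figure D1:**
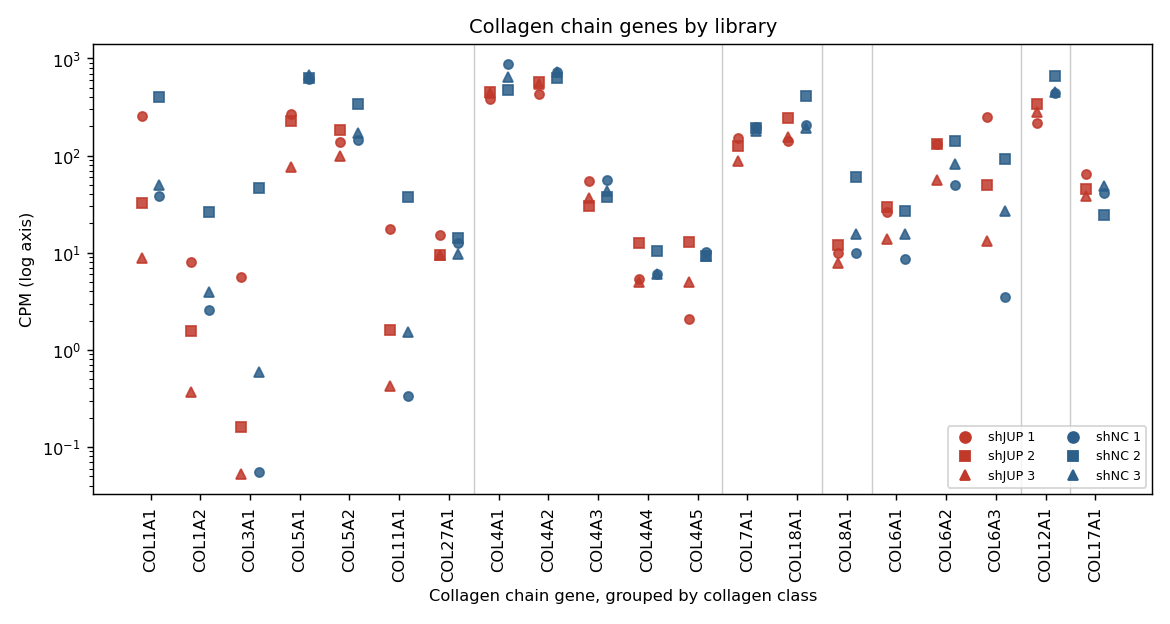
Level of the 20 collagen chain genes with a mean of at least 5 CPM (log axis) in each of the 6 libraries, shJUP in red and shNC in blue, in order of collagen class. The 3 controls of COL5A1 sit between 609 and 682 CPM, above the shJUP libraries at 76.1 to 266 CPM, whereas COL1A1, COL1A2, COL3A1 and COL11A1 spread over more than a factor of 10 within each group.

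On the scale that corrects for gene length (TPM, in which all genes of a library share 1 fixed sum), the 41 members summed to 965, 840 and 606 TPM in shJUP 1, 2 and 3, against 1081, 1442 and 1081 TPM in shNC 1, 2 and 3. With the union of a gene's exons as its length, the highest chains in shJUP were COL4A1 at 114 ± 4.3 TPM, COL4A2 at 105 ± 9.7 TPM and COL12A1 at 88.0 ± 14 TPM. Those of shNC were COL5A1 at 216 ± 16 TPM, COL4A1 at 171 ± 54 TPM and COL12A1 at 156 ± 31 TPM (SD, n = 3 each). COL5A1 stood at 67.2 ± 37 TPM in shJUP, below COL18A1, COL6A2 and COL5A2 by less than its SD. With the longest annotated transcript as length, the order changed. In shJUP COL4A2 (230 ± 22 TPM) then stood above COL4A1 (188 ± 7.7 TPM), and COL6A2 (90 ± 38 TPM) and COL18A1 (79.7 ± 21 TPM) above COL12A1 (69.3 ± 12 TPM). In shNC COL4A2 (304 ± 30 TPM) and COL4A1 (284 ± 89 TPM) then stood above COL5A1 (213 ± 14 TPM). Type IV chains were 31.4% ± 8.6 of that sum in shJUP and 28.7% ± 9.7 in shNC (SD, n = 3 each). Fibrillar chains were 22.7% ± 8.7 in shJUP and 33.6% ± 5.8 in shNC, with 31.8, 22.0 and 14.3 percent in shJUP 1, 2 and 3 against 28.5, 39.9 and 32.2 percent in shNC 1, 2 and 3. These shares overlap between the groups. Beaded filament chains were 13.8% ± 4.7 in shJUP and 6.66% ± 2.6 in shNC, also with overlap. Transmembrane chains were 4.22, 3.08 and 3.64 percent in shJUP 1, 2 and 3 and 2.15, 1.15 and 2.54 percent in shNC 1, 2 and 3. Their shares did not overlap, and an exact permutation test of 3 against 3 cannot give a two-sided p below 0.10. Their summed levels did overlap, at 40.7, 25.9 and 22.1 TPM in shJUP 1, 2 and 3, against 23.2, 16.6 and 27.4 TPM in shNC 1, 2 and 3. The collagen sum that the shares divide by was lower in shJUP. With the longest annotated transcript as gene length, type IV chains took 46.3% in shJUP and 43.5% in shNC, so type IV then stood above the fibrillar chains (26.9%) in shNC as well.

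**Figure D2:**
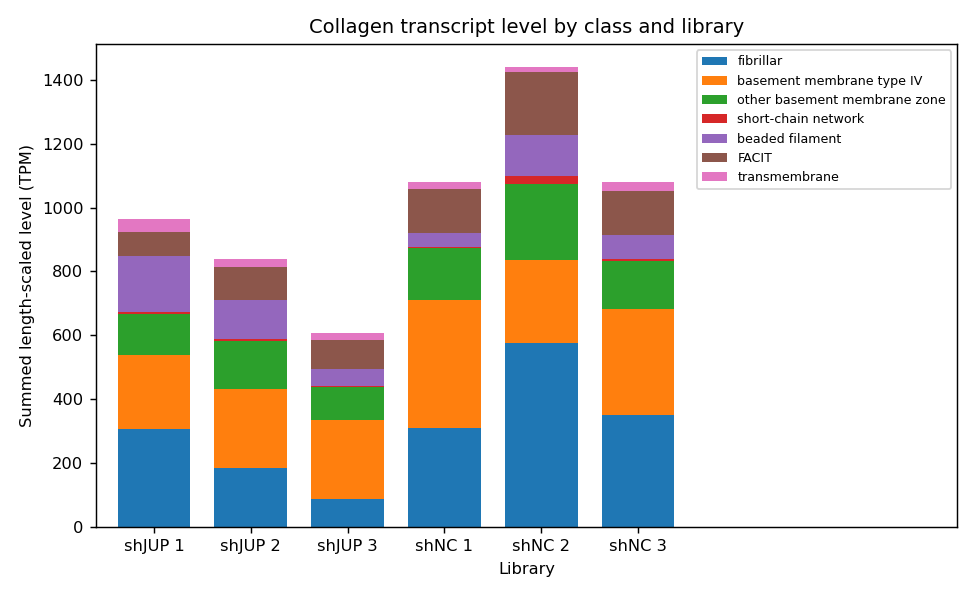
Summed length-scaled level (TPM) of the collagen chain genes by class, stacked, in each library. The stacks reach 606 to 965 TPM in shJUP and 1081 to 1442 TPM in shNC; COL26A1 and COL28A1, at most 0.0612 percent of a stack, are not drawn.

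Collagen chains leaned toward lower levels in shJUP. Of the 26 tested members, 18 (69.2%) had a log2 fold change (shJUP over shNC) below 0, with a median of -0.56, against 51.4% and a median of -0.01 over all 15867 tested genes. The edgeR quasi-likelihood test over all genes called none of them and no other gene (0.00%), and 0.28 was the smallest adjusted p of any gene. Before adjustment 7 members had an edgeR p under 0.05, all lower, which is 26.9% of those tested, against 4.87% of all tested genes that were lower and 5.17% higher at that level. DESeq2, which gave an adjusted p for 21 of the 26, called 2 lower, COL5A1 and COL12A1, and none higher, against 1.12% of tested genes called in all, 0.492% lower and 0.630% higher. In 6 members each shJUP library lay below each control, namely COL5A1, COL11A2, COL4A1, COL4A2, COL7A1 and COL12A1, which is 23.1%, against 8.65% of all tested genes lower and 8.39% higher without overlap. No member had each shJUP library above each control.

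A block for the library number was also fitted. Only the libraries of number 2 clearly deviated together (r = 0.51, against 0.14 and 0.20 for numbers 1 and 3). The libraries shJUP 3 and shNC 1 correlated at 0.39. DESeq2 with the block called 7 members lower, which adds COL5A2, COL4A1, COL4A2, COL7A1 and COL18A1 to COL5A1 and COL12A1, and none higher, against 4.38% of tested genes in all, 2.42% lower and 1.96% higher. The edgeR test with the block called no member (0.00630% of all tested genes). The lean of the list rests on the control library shNC 2: without it 11 of 26 members lay below 0 in the edgeR fit and the median was 0.08. The 7 genes called by DESeq2 with the block kept a negative fold change in every fit that left out 1 library, though that of COL5A2 came to -0.16 and that of COL18A1 to -0.13 by DESeq2 without shNC 2.

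**Figure D3:**
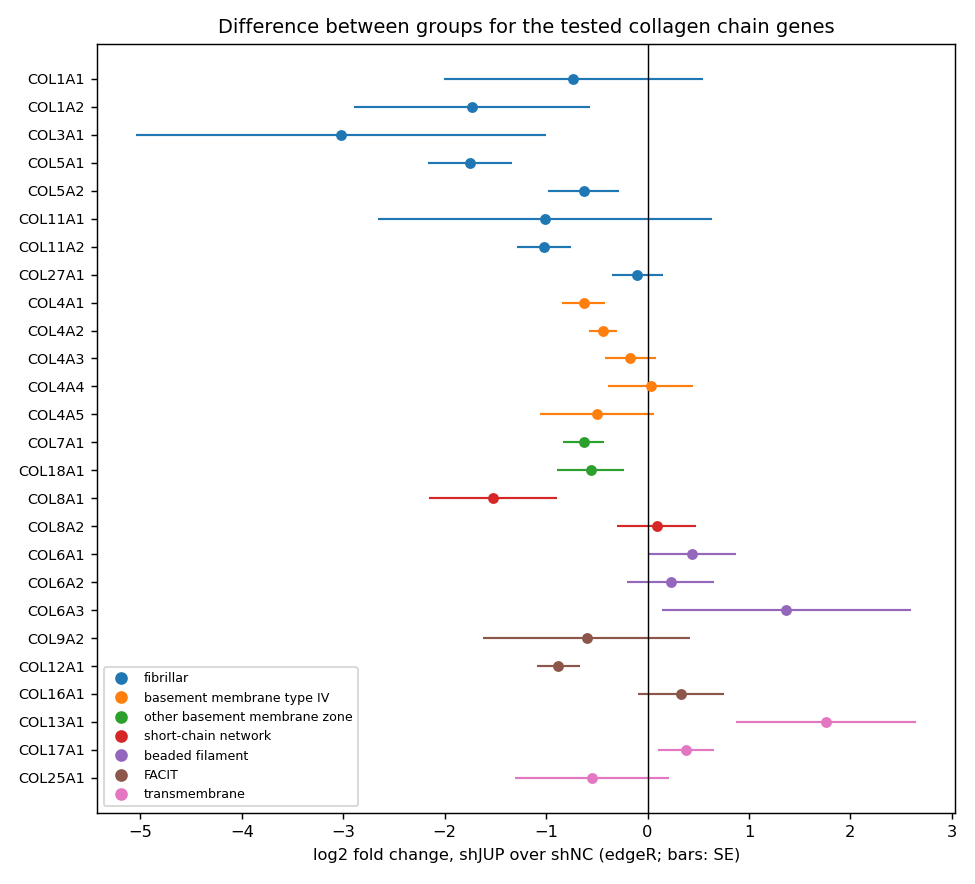
Log2 fold change, shJUP over shNC, of the 26 tested collagen chain genes from the edgeR fit, with bars of 1 SE, coloured by class. In this fit of all 6 libraries all 8 fibrillar chains lie below 0, at -3.02 to -0.10, with the longest bars at COL3A1 and COL11A1. The 3 type VI chains lie above 0, at 0.23 to 1.37. Signs in both classes turned when single libraries were left out.

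Among the fibrillar chains, 8 of 11 were tested and all 8 had a fold change below 0, against 51.4% of all tested genes. Their median was -1.01, against -0.01 over all tested genes. DESeq2 called 1 of them lower (12.5%), against 0.492% of all tested genes, and edgeR called none. The shared sign rests on shNC 2. Without it the edgeR log2 fold change was 1.16 for COL1A1, 2.52 for COL3A1, 2.80 for COL11A1, 0.03 for COL27A1 and 0.00 for COL1A2. COL5A1 (ENSG00000130635), the chain of type V that nucleates fibrils, stood at 266, 226 and 76.1 CPM in shJUP 1, 2 and 3, against 609, 624 and 682 CPM in shNC 1, 2 and 3. The controls lie close together, and all shJUP libraries lay below them, shJUP 3 farthest. The mean was 189 ± 100 CPM in shJUP, against 638 ± 39 CPM in shNC (SD, n = 3 each), so the shJUP mean was 29.7% of the control mean. The log2 fold change was -1.75 (SE 0.41), with an adjusted p of 0.38 by edgeR, 7.6e-04 by DESeq2 and 0.0061 by DESeq2 with the block. DESeq2 kept the call in 5 of 6 fits that each left out 1 library. Without shNC 2 the adjusted p was 0.16, and without both libraries of number 2 it was 0.19.

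COL5A2 (ENSG00000204262), the partner chain of type V, stood at 138, 182 and 99.5 CPM in shJUP 1, 2 and 3, against 144, 336 and 170 CPM in shNC 1, 2 and 3. The groups overlap, and shNC 2 is the highest library. The log2 fold change was -0.63 (SE 0.35), with an adjusted p of 0.58 by edgeR, 0.52 by DESeq2 and 0.029 by DESeq2 with the block. Without shNC 2 the log2 fold change of COL5A2 was -0.16 by DESeq2 (adjusted p = 0.91), and no DESeq2 fit with 1 library left out called it. Per length, the ratio of COL5A2 to COL5A1 was 0.777, 1.21 and 1.96 in shJUP 1, 2 and 3, against 0.356, 0.809 and 0.375 in shNC 1, 2 and 3. These ratios overlap by a narrow margin.

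COL11A2, a chain of type XI, was low at 3.35, 3.36 and 2.55 CPM in shJUP 1, 2 and 3, against 8.23, 5.37 and 5.17 CPM in shNC 1, 2 and 3. The groups do not overlap, and the log2 fold change was -1.02 (SE 0.27; adjusted p = 0.40 in edgeR, 0.084 in DESeq2). COL27A1, a fibrillar chain of cartilage, stood at 15.4, 9.44 and 9.40 CPM in shJUP 1, 2 and 3, against 12.7, 14.2 and 9.68 CPM in shNC 1, 2 and 3. Its log2 fold change of -0.10 (SE 0.25, edgeR adjusted p = 0.92) was smaller than its error.

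The other fibrillar chains differed more between replicates than between the groups. COL1A1 (ENSG00000108821), the main chain of type I collagen, stood at 253, 32.3 and 8.76 CPM in shJUP 1, 2 and 3, against 38.3, 401 and 49.3 CPM in shNC 1, 2 and 3. The highest library of each group, shJUP 1 and shNC 2, stood far above the other two. The means were 97.9 ± 135 CPM in shJUP, against 163 ± 206 CPM in shNC (SD, n = 3 each), and edgeR did not call the log2 fold change of -0.73 (SE 1.28; adjusted p = 0.87). COL1A2 (ENSG00000164692), its partner chain, had the same highest libraries, with 7.98, 1.55 and 0.372 CPM in shJUP 1, 2 and 3 against 2.60, 26.1 and 3.97 CPM in shNC 1, 2 and 3 (log2 -1.73, SE 1.16, edgeR adjusted p = 0.64). Counts of COL3A1 (ENSG00000168542), the chain of type III, were 100, 3 and 1 in shJUP 1, 2 and 3, against 1, 866 and 11 in shNC 1, 2 and 3. COL11A1 (ENSG00000060718), the main chain of type XI, stood at 17.6, 1.60 and 0.425 CPM in shJUP 1, 2 and 3, against 0.332, 37.6 and 1.52 CPM in shNC 1, 2 and 3. The fold changes of COL3A1 (-3.02, SE 2.02) and COL11A1 (-1.01, SE 1.65) were not called by edgeR, with adjusted p-values of 0.63 and 0.86. The sign of COL1A1, COL3A1 and COL11A1 turned when shNC 2 was left out, at log2 1.16, 2.52 and 2.80, and COL1A2 came to 0.00.

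A common shape ran through these genes, described after their values were seen and not tested. In 6 of the 26 tested members, shJUP 1 and shNC 2 each stood at least 2-fold above both other libraries of their group. They are COL1A1, COL1A2, COL3A1, COL11A1, COL6A3 and COL13A1, and they make up 23.1% of the tested members, against 0.214% of all tested genes (34 genes). Counting shNC 2 alone, 9 members (34.6%) stood at least 2-fold above both other controls, against 4.97% of all tested genes, with COL8A1, COL9A2 and COL25A1 added. For shJUP 1 alone the same 6 members did so, against 1.52% of all tested genes.

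**Figure D4:**
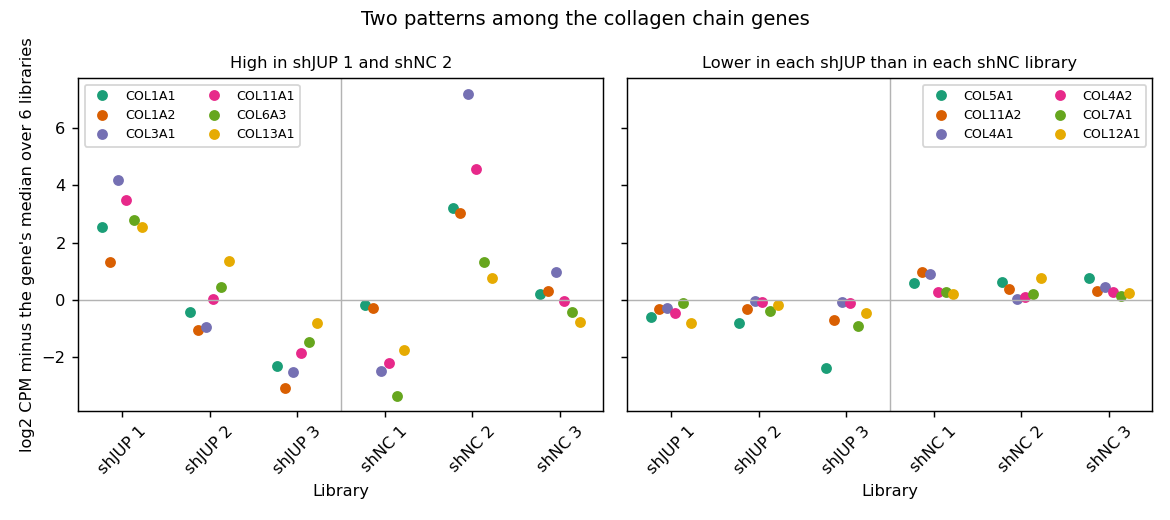
Level of 12 collagen chain genes in each library, as log2 CPM minus the gene's median over the 6 libraries. Left, the 6 genes that stand high in shJUP 1 and shNC 2; COL3A1 had 100 counts in shJUP 1 and 866 in shNC 2, against 1 to 11 in the other libraries. Right, the 6 genes in which each shJUP library lies below each shNC library.

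Fibroblast markers were read beside these genes, since fibroblasts make type I and type III collagen. Of 10 markers 3 reached 1 CPM in any library, namely DCN, LUM and PI16. TCF21 and DPT had no count, and PDGFRB, THY1 and FAP were near 0, with at most 0.319, 0.266 and 0.584 CPM. The summed level of the 10 markers was 2.40, 14.2 and 2.55 CPM in shJUP 1, 2 and 3, against 8.07, 58.7 and 10.3 CPM in shNC 1, 2 and 3. It was highest in shNC 2, where COL1A1, COL1A2, COL3A1 and COL11A1 were high and PI16 gave most of the sum. PI16 stood at 0.112, 1.12 and 0.584 CPM in shJUP 1, 2 and 3, against 5.14, 34.5 and 2.61 CPM in shNC 1, 2 and 3. Its groups do not overlap, and its log2 fold change was -4.52 (SE 1.15; adjusted p = 0.40 in edgeR, 0.041 in DESeq2 and 1.8e-09 in DESeq2 with the block). The sum of the 10 fibroblast markers was about as low in shJUP 1, where these chains were also high, as in shJUP 3. DCN stood at 0.614, 5.87 and 0.743 CPM in shJUP 1, 2 and 3, against 0.553, 7.54 and 2.45 CPM in shNC 1, 2 and 3. LUM stood at 1.23, 6.67 and 0.903 CPM in shJUP, against 1.66, 15.5 and 4.41 CPM in shNC. Unlike PI16, both overlapped between the groups (DESeq2 adjusted p = 0.95 for DCN and 0.78 for LUM). Like PI16, both were highest in the number 2 library of each group. The summed level of chondrocyte markers was 22.4 to 30.3 CPM in shJUP, against 15.0 to 22.4 CPM in shNC, and shNC 2 was the lowest. Mesothelial markers summed to 31.9 to 62.2 CPM in shJUP, against 27.9 to 36.0 CPM in shNC, highest in shJUP 1, where LRRN4 took most of the sum. Endothelial markers summed to at most 14.8 CPM in shJUP, against at most 11.9 CPM in shNC. KDR gave most of the sum, at 8.59, 8.96 and 10.8 CPM in shJUP 1, 2 and 3, against 5.53, 7.70 and 5.06 CPM in shNC 1, 2 and 3. It did not overlap between the groups (log2 0.63, SE 0.22; adjusted p = 0.45 in edgeR and 0.29 in DESeq2). TEK was untested and lay lower in shJUP without overlap, at 0.112 to 0.212 CPM, against 0.218 to 1.43 CPM in shNC. TIE1 stood at 1.12, 3.04 and 2.97 CPM in shJUP 1, 2 and 3, against 0.497, 0.319 and 0.707 CPM in shNC 1, 2 and 3. TIE1 did not overlap between the groups (log2 2.21, SE 0.51; adjusted p = 0.38 in edgeR and 0.026 in DESeq2), and CDH5, which averaged 0.767 ± 0.73 CPM in shJUP, against 1.45 ± 0.20 CPM in shNC, had an adjusted p of 0.65 in edgeR and 0.74 in DESeq2. The leukocyte sum of 19.7 to 36.1 CPM over all libraries was nearly all CD68. Their part in the levels of the collagen chains was not tested.

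The spread between replicates, taken as the biological coefficient of variation in the edgeR fit, had a median of 37.5% in the tested members and 20.1% in all tested genes. Of the 26, 9 (34.6%) were among the 5% of genes with the highest spread, a share that is 5.00% over all tested genes. They are the same 9 members in which shNC 2 stood at least 2-fold above both other controls. A high spread follows from such a lead, so this share is not a separate result. The largest values were 156% for COL3A1, 128% for COL11A1, 98.6% for COL1A1, 95.2% for COL6A3 and 92.1% for COL1A2. COL5A1 had 34.5%, and COL4A2 had the smallest of the members at 14.5%.

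**Figure D5:**
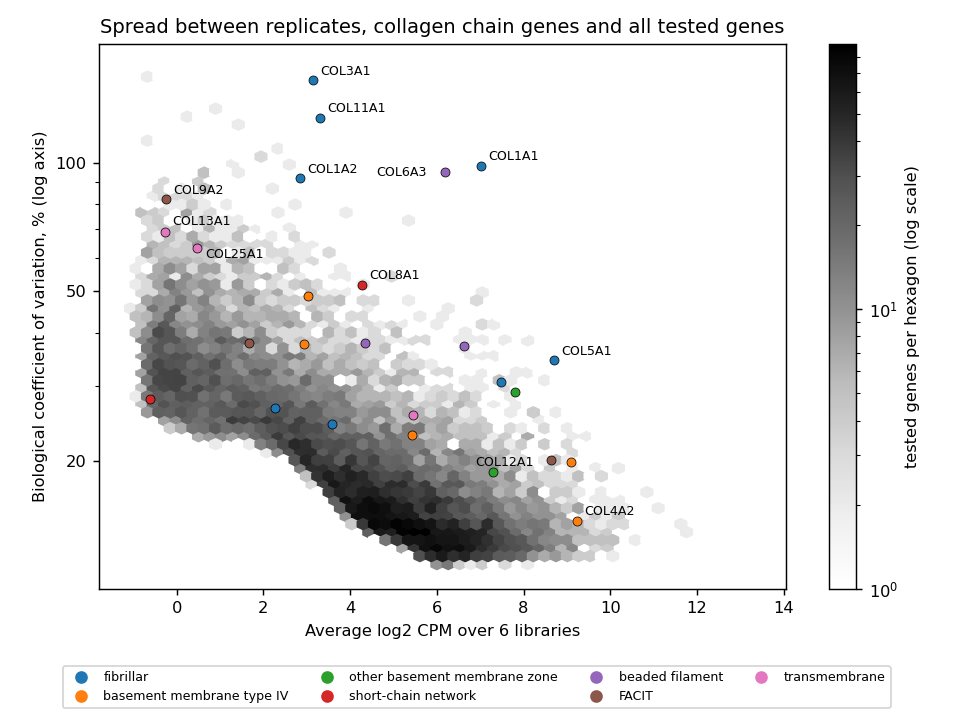
Biological coefficient of variation (percent, log axis) against the average level (log2 CPM) for all 15867 tested genes as grey hexagons and for the 26 tested collagen chain genes as points coloured by class. COL3A1, COL11A1, COL1A1, COL6A3 and COL1A2 lie at 92.1 to 156%, above nearly all genes of like level, and COL4A2 lies at 14.5%.

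The chains of type IV collagen found in nearly all basement membranes lay lower in all shJUP libraries than in any control. COL4A1 (ENSG00000187498) stood at 385, 456 and 443 CPM in shJUP 1, 2 and 3, against 868, 479 and 638 CPM in shNC 1, 2 and 3. The groups do not overlap, though shNC 2 lay just above the highest shJUP library. The mean was 428 ± 38 CPM in shJUP, against 662 ± 196 CPM in shNC (SD, n = 3 each), with a log2 fold change of -0.63 (SE 0.21). Its adjusted p was 0.44 by edgeR, 0.18 by DESeq2 and 0.049 by DESeq2 with the block. With single libraries left out, DESeq2 called COL4A1 lower in 1 of 6 fits, the one without shNC 2 (log2 -0.81, adjusted p = 9.2e-04). Without shNC 1 its log2 fold change was -0.38, with a DESeq2 adjusted p of 0.71.

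COL4A2 (ENSG00000134871), the partner chain, stood at 431, 566 and 547 CPM in shJUP 1, 2 and 3, against 729, 636 and 727 CPM in shNC 1, 2 and 3. These groups do not overlap either, with means of 515 ± 73 CPM in shJUP, against 697 ± 53 CPM in shNC (SD, n = 3 each). The log2 fold change was -0.44 (SE 0.14), with an adjusted p of 0.42 by edgeR, 0.21 by DESeq2 and 0.041 by DESeq2 with the block. DESeq2 called COL4A2 in none of the 6 fits that left out 1 library (adjusted p = 0.083 to 0.66). Per length, the ratio of COL4A2 to COL4A1 was 0.855, 0.947 and 0.943 in shJUP 1, 2 and 3. It was 0.641, 1.01 and 0.870 in shNC 1, 2 and 3. The ratios overlap.

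The chains of specialised basement membranes, such as those of the kidney glomerulus, were lower in level and overlapped between the groups. COL4A3 stood at 55.2, 30.3 and 36.8 CPM in shJUP 1, 2 and 3, against 56.4, 37.1 and 43.7 CPM in shNC 1, 2 and 3 (log2 -0.17, SE 0.25, edgeR adjusted p = 0.84). COL4A4 stood at 5.30, 12.6 and 4.99 CPM in shJUP 1, 2 and 3, against 5.97, 10.5 and 6.04 CPM in shNC 1, 2 and 3 (log2 0.03, SE 0.42, edgeR adjusted p = 0.99). COL4A4 was thus high in both libraries of number 2, while COL4A3 was lowest in them in each group. Their ratio per length, COL4A4 to COL4A3, was 0.376 in shJUP 2 and 0.255 in shNC 2. It lay between 0.0870 and 0.125 in all other libraries. COL4A5 stood at 2.06, 13 and 5.04 CPM in shJUP 1, 2 and 3, against 10.1, 9.30 and 9.20 CPM in shNC 1, 2 and 3 (log2 -0.50, SE 0.56, edgeR adjusted p = 0.78). Only shJUP 2 lay above the controls. With single libraries left out, DESeq2 called COL4A5 lower in 1 of 6 fits, the one without shJUP 2 (log2 -1.41, adjusted p = 0.023), and with both number-2 libraries left out the adjusted p was 0.032. Without shJUP 1 and without shJUP 3 its log2 fold change was -0.07 and -0.33, with a DESeq2 adjusted p of 1 in each. COL4A6, its neighbour, was untested at 1 to 4 counts in a library.

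Of the other chains at the basement membrane, COL7A1 (ENSG00000114270), the anchoring fibril chain, stood at 153, 126 and 87.5 CPM in shJUP 1, 2 and 3, against 198, 191 and 179 CPM in shNC 1, 2 and 3. The groups do not overlap and the controls lie close together. The mean was 122 ± 33 CPM in shJUP, against 189 ± 9.4 CPM in shNC (SD, n = 3 each), and the log2 fold change was -0.63 (SE 0.20), with an adjusted p of 0.42 by edgeR, 0.13 by DESeq2 and 0.0016 by DESeq2 with the block. When single libraries were left out, DESeq2 called COL7A1 lower in 1 of 6 fits. That was the one without shJUP 1 (adjusted p = 0.025), with 0.14 to 0.54 in the others. COL18A1 (ENSG00000182871), the precursor of endostatin, stood at 143, 245 and 157 CPM in shJUP 1, 2 and 3, against 205, 406 and 194 CPM in shNC 1, 2 and 3. The library of number 2 was the highest in each group, and the groups overlap. Its log2 fold change was -0.56 (SE 0.33), with an adjusted p of 0.60 by edgeR, 0.58 by DESeq2 and 0.0038 by DESeq2 with the block. Without shNC 2 the log2 fold change of COL18A1 was -0.13 by DESeq2 (adjusted p = 0.93), and no DESeq2 fit with 1 library left out called it. Exons of COL18A1 overlap those of SLC19A1 on the other strand over 1401 bases (16.4% of its exons), and the sources used here do not say whether counting used strand. COL15A1, its relative, was untested at 2 to 10 counts in a library.

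Short-chain network collagens include COL8A1, a chain of vessel walls and of the cornea. It stood at 9.82, 12.1 and 7.86 CPM in shJUP 1, 2 and 3, against 9.89, 60.2 and 15.5 CPM in shNC 1, 2 and 3. The mean was 9.93 ± 2.1 CPM in shJUP, against 28.5 ± 28 CPM in shNC (SD, n = 3 each), and shNC 2 stood far above the other two controls. The log2 fold change of -1.52 (SE 0.63) had adjusted p-values of 0.49 in edgeR and 0.055 in DESeq2 with the block. With single libraries left out, DESeq2 called COL8A1 lower in 1 of 6 fits, the one without shNC 1 (log2 -1.93, adjusted p = 0.04). Without shNC 2 the log2 fold change was -0.36 by edgeR (adjusted p = 0.67) and -0.35 by DESeq2 (adjusted p = 0.79). COL8A2 was near the filter at 0.478 to 0.614 CPM in shJUP, against 0.381 to 0.691 CPM in shNC.

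The 3 chains of type VI collagen, which forms beaded filaments, all had a fold change above 0, and none passed a test. COL6A1 stood at 26.2, 29.3 and 13.7 CPM in shJUP 1, 2 and 3, against 8.57, 26.9 and 15.5 CPM in shNC 1, 2 and 3 (log2 0.44, SE 0.43, edgeR adjusted p = 0.75). COL6A2 stood at 131, 132 and 56.3 CPM in shJUP 1, 2 and 3, against 50.1, 141 and 82.1 CPM in shNC 1, 2 and 3 (log2 0.23, SE 0.43, edgeR adjusted p = 0.88). Both were lowest in shJUP 3 and shNC 1 of their groups. COL6A3, the long chain, varied most, with 251, 49.5 and 13.2 CPM in shJUP 1, 2 and 3 against 3.54, 91.3 and 26.9 CPM in shNC 1, 2 and 3 (log2 1.37, SE 1.23, edgeR adjusted p = 0.72). Leaving out single libraries turned the sign of COL6A2 and COL6A3, down to log2 -0.07 and -0.37. Per length, COL6A2 to COL6A1 was 4.95, 4.47 and 4.08 in shJUP 1, 2 and 3, against 5.80, 5.19 and 5.25 in shNC 1, 2 and 3. This narrow ratio did not overlap between the groups, with 0.10 as the smallest p an exact permutation test of 3 against 3 can give. The ratio of COL6A3 to COL6A1 ran from 0.263 to 2.61 in shJUP and from 0.112 to 0.922 in shNC, a wider range within each group than that of COL6A2 to COL6A1.

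Of the 9 fibril-associated collagens 3 were tested. COL12A1 (ENSG00000111799), which binds the surface of type I fibrils, stood at 219, 342 and 280 CPM in shJUP 1, 2 and 3, against 442, 653 and 452 CPM in shNC 1, 2 and 3. The groups do not overlap, and the library of number 2 was the highest in each. The mean was 281 ± 61 CPM in shJUP, against 516 ± 119 CPM in shNC (SD, n = 3 each), so the shJUP mean was 54.4% of the control mean. The log2 fold change was -0.88 (SE 0.21), with an adjusted p of 0.39 by edgeR, 0.019 by DESeq2 and 1.3e-10 by DESeq2 with the block. When single libraries were left out, DESeq2 kept the call in 1 of 6 fits, the one without shJUP 2 (adjusted p = 0.0016), with 0.05 to 0.2 in the others. Without both libraries of number 2 the adjusted p by DESeq2 was 1.4e-05. COL16A1 at 1.75 to 4.85 CPM in shJUP, against 1.97 to 3.59 CPM in shNC (log2 0.33, SE 0.42), and COL9A2 at 0.159 to 0.907 CPM in shJUP, against 0.109 to 2.18 CPM in shNC (log2 -0.60, SE 1.02), did not pass the edgeR test.

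Transmembrane collagens were represented mainly by COL17A1, the hemidesmosomal chain of epithelial cells. It stood at 65.2, 45.2 and 38.7 CPM in shJUP 1, 2 and 3, against 41.1, 24.6 and 48.7 CPM in shNC 1, 2 and 3. The groups overlap, with a log2 fold change of 0.38 (SE 0.28, edgeR adjusted p = 0.66). COL13A1 had 39, 18 and 4 counts in shJUP 1, 2 and 3, against 2, 12 and 4 counts in shNC 1, 2 and 3 (log2 1.76, SE 0.89, edgeR adjusted p = 0.56). COL25A1, a chain found in brain, stood at 0.584 to 1.87 CPM in shJUP, against 0.608 to 3.19 CPM in shNC (log2 -0.55, SE 0.76).

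The other 15 members had too few counts for a test, with at most 41 in any library (COL23A1 in shNC 2), and 10 of them had 0 in at least 1 library. They are COL2A1, COL5A3 and COL24A1 among the fibrillar chains, COL4A6, COL15A1, COL10A1, COL23A1, COL26A1, COL28A1, and the fibril-associated COL9A1, COL9A3, COL14A1, COL19A1, COL21A1 and COL22A1. COL2A1 and COL10A1, chains of cartilage, had at most 6 and 2 counts. At this depth no difference in these genes was detectable.

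The genes that modify, export, cleave, crosslink and bind collagens were read beside the chains, as a list of 41 of which 36 were tested. Of these, 29 (80.6%) had a fold change below 0, against 51.4% of all tested genes. Their median was -0.28, against -0.01 over all tested genes. Without overlap, 9 (25.0%) lay lower, against 8.65% of all tested genes. The edgeR test called none, and DESeq2 called 2 lower (0.492% of all tested genes), TLL1 and BMP1. With the block DESeq2 called 4 lower (2.42%), adding PLOD1 and MRC2. All 14 tested genes of hydroxylation and folding lay below 0, with a median of -0.34. So did the 3 of crosslinking, with a median of -0.36. The 4 of export were also below 0, but their median of -0.01 was the same as that of all tested genes. Genes of propeptide cleavage were split evenly, 4 above and 4 below 0, and those of receptors and uptake were 3 above and 4 below.

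TLL1, a protease that trims procollagen, stood at 5.97, 7.15 and 4.19 CPM in shJUP 1, 2 and 3, against 26.6, 15.4 and 27.5 CPM in shNC 1, 2 and 3. Its log2 fold change was -2.0 (SE 0.29), with adjusted p-values of 0.32 in edgeR and 2.3e-07 in DESeq2. BMP1, the related procollagen C-proteinase, stood at 68.0, 76.3 and 63.7 CPM in shJUP 1, 2 and 3, against 133, 114 and 118 CPM in shNC 1, 2 and 3. Its log2 fold change was -0.81 (SE 0.12), with adjusted p-values of 0.32 in edgeR and 2.9e-05 in DESeq2. In both genes the groups do not overlap, and DESeq2 called both in each of the 6 fits that left out 1 library.

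Among the modifying enzymes, PLOD1, a lysyl hydroxylase, averaged 302 ± 93 CPM in shJUP, against 510 ± 39 CPM in shNC (log2 -0.76, SE 0.21). Its adjusted p was 0.4 by edgeR, 0.064 by DESeq2 and 2.5e-04 by DESeq2 with the block. COLGALT1, which adds galactose to hydroxylysine, averaged 131 ± 16 CPM in shJUP, against 169 ± 8.0 CPM in shNC (log2 -0.37, SE 0.12). Over all libraries it was not called, with an adjusted p of 0.42 by edgeR, 0.27 by DESeq2 and 0.11 by DESeq2 with the block. LOX, which crosslinks collagen, stood at 90.3, 192 and 75.1 CPM in shJUP 1, 2 and 3, against 233, 256 and 263 CPM in shNC 1, 2 and 3 (log2 -1.07, SE 0.33; adjusted p = 0.42 in edgeR, 0.060 in DESeq2). The groups do not overlap. Without shJUP 2, DESeq2 called PLOD1 (adjusted p = 3.0e-08), COLGALT1 (0.017) and LOX (5.6e-20) lower. For each of these genes that was the only call in the 6 fits that left out 1 library. LOXL2, a related crosslinker (log2 -0.32, SE 0.27), MIA2 of the export step (-0.18, SE 0.13) and ITGB1, the beta chain of collagen-binding integrins (-0.19, SE 0.11), did not pass the edgeR or the DESeq2 test over all 6 libraries. Without both libraries of number 2, DESeq2 called 9 genes of the related list lower, against 2.18% of all tested genes. Among them were LOXL2 (log2 -0.70, adjusted p = 0.017), the prolyl hydroxylase gene P3H2 (-0.81, 9.5e-06) and the integrin gene ITGA1 (-0.82, 0.013). With single libraries left out the log2 fold change of LOXL2 by edgeR ran from -0.52 without shJUP 2 to -0.11 without shJUP 3. DESeq2 called LOXL2 in none of these 6 fits. MRC2, an uptake receptor, averaged 113 ± 63 CPM in shJUP, against 199 ± 126 CPM in shNC, and its groups overlap. The adjusted p of MRC2 was 0.62 by edgeR and 0.75 by DESeq2. With the block it was 5.7e-05 by DESeq2 and 0.098 by edgeR. No DESeq2 fit with 1 library left out called MRC2, whose log2 fold change by edgeR ran from -1.38 without shJUP 2 to -0.17 without shNC 2. Without both libraries of number 2, edgeR called TLL1, LOX and BMP1 (0.312% of all genes tested in that fit) and no collagen chain, and DESeq2 called 4 collagen chains lower, COL4A1, COL4A2, COL4A5 and COL12A1 (4.03% of tested genes in all, 2.18% lower and 1.85% higher).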

How the data were processed

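RNA of 6 SKOV3 cultures (shJUP 1 to 3, shNC 1 to 3) was sequenced. The deposited values are estimated counts (expected counts) by Ensembl gene, with no scaling. Per the labels' protocols, messenger RNA was enriched on oligo(dT) beads. The submitters' processing notes name STAR 2.7.9a and RSEM 1.3.3, and also edgeR 3.32.1 and DESeq2 1.26.0, without roles. Genome build and strand setting: not given in the sources used here. Of 60695 rows, 31 without a gene ID were left out.

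Counts were rounded. The main test was edgeR 4.0.16 (R 4.3.3; filterByExpr, which kept 15867 genes; TMM; quasi-likelihood, two-sided, Benjamini-Hochberg over all tested genes, threshold 0.05), with SE as the size of the log2 fold change divided by the root of F. DESeq2 1.42.0 and limma 3.58.1 (voom) were alternatives. Means are given with SD, n = 3 per group. The p-values weigh the difference between the groups against the spread between these samples. Levels between genes used GENCODE 29 union exon lengths for TPM. Besides COL18A1, exons shared with other genes took at most 4.0% of a member's exons. Steps were tested on simulated data.

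The members and lists were chosen with earlier results of these data known, and so was leaving out number 2. Values in each library are given for members with a mean of at least 5 CPM or called by edgeR, DESeq2 or DESeq2 with the block. Of the collagen-related list, genes called by these fits and at most the 2 smallest edgeR p-values of each step are named. P3H2 and ITGA1 were added for their DESeq2 calls without number 2. COL11A2, COL3A1 counts and COL13A1 counts were singled out after their values were seen. DESeq2 with each library left out was chosen after seeing the data. Chain ratios are given where both chains have at least 10 counts in each library. Sequences are from RefSeq. Deviations of same-number libraries correlated at r = 0.14, 0.51 and 0.20 for numbers 1, 2 and 3. However, shJUP 3 correlated at 0.39 with shNC 1, and shJUP 1 at 0.15 with shNC 3, so only number 2 paired clearly. What the numbers mean is not stated in the labels.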

Additional observations from a re-analysis of the deposited data

How the results depend on the processing

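Over all genes, edgeR called 0 genes and 0 collagen chains under the other scalings, the stricter filter of 1 CPM in 3 libraries and each left-out library. With no filter it called 5 genes, 1 of them of the collagen-related list. DESeq2 called 179 genes, 2 collagen chains and 2 of the related list. With the replicate block, edgeR and limma-voom each called 1 gene and no collagen chain, and DESeq2 called 696 genes, 7 chains and 4 related genes. Without both libraries of number 2, edgeR called 49 genes, 0 chains and 3 related genes, and DESeq2 643, 4 and 9. With 1 library left out, DESeq2 called 62 to 486 genes (90 and 63 without shJUP 1 and 3, 300 and 127 without shNC 2 and 3), 1 to 3 chains and 2 to 6 related genes. The number of tested chains below 0 ran from 11 to 20, and their median from -0.66 to 0.08 by edgeR and from -0.65 to 0.09 by DESeq2, each turning without shNC 2. Without number 2 the median was -0.13 by edgeR and -0.02 by DESeq2.

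Signs turned without number 2 (edgeR, then DESeq2) for COL1A1 (1.59, 1.58), COL1A2 (0.35, 0.35), COL3A1 (3.07, 3.10), COL11A1 (3.27, 3.28), COL27A1 (0.16, 0.16) and COL4A4 (-0.21, -0.22), and for COL9A2 by DESeq2 (0.92). COL4A4 also turned with voom (-0.06) and with the block (-0.05 by edgeR, -0.04 by DESeq2), and was -0.11 and -0.10 by DESeq2 without shNC 1 and shNC 3. COL9A2 turned with voom (0.04), and was 0.00 with the block in DESeq2. With 1 library left out, log2 fold changes by edgeR ran from -2.98 to 1.16 for COL1A1, -3.49 to 0.00 for COL1A2, -7.10 to 2.52 for COL3A1, -3.69 to 2.80 for COL11A1, -0.37 to 0.03 for COL27A1, -0.44 to 0.01 for COL4A3, -0.54 to 0.35 for COL4A4, -0.09 to 0.34 for COL8A2, -0.07 to 0.69 for COL6A2, -0.37 to 2.78 for COL6A3, -1.11 to 1.37 for COL9A2 and -1.32 to 0.63 for COL25A1. By DESeq2 they ran from -2.98 to 1.16, -3.50 to 0.00, -7.18 to 2.55, -3.69 to 2.81, -0.36 to 0.04, -0.44 to 0.02, -0.54 to 0.35, -0.08 to 0.36, -0.06 to 0.69, -0.37 to 2.78, -1.11 to 1.40 and -1.32 to 0.64, in the same order of genes.

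With the longest transcript as gene length, the share of the collagen level was 26.9% for fibrillar chains in shNC, 46.3% in shJUP and 43.5% in shNC for type IV, 12.2% and 11.9% for the other basement membrane chains, 7.56% and 8.77% for fibril-associated chains and 2.77% in shJUP for transmembrane chains. The ratio of COL4A2 to COL4A1 was then 1.22 in shJUP and 1.12 in shNC, and that of COL6A2 to COL6A1 5.55 and 6.68. Where a value moved, the cause was not tested. The 15 untested chains had at most 41 counts in any library.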

Other observations

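The shape in which shJUP 1 and shNC 2 each stand at least 2-fold above both other libraries of their group was also found in 28 genes that encode no collagen chain. These were listed after the values were seen and carry no test. They include SPARC, a collagen-binding matrix protein, at 322, 61.3 and 35.8 CPM in shJUP 1, 2 and 3, against 25.6, 295 and 47.3 CPM in shNC 1, 2 and 3. WNT5A, a secreted signal, stood at 137, 26.2 and 16.8 CPM in shJUP 1, 2 and 3, against 12.2, 104 and 33.5 CPM in shNC 1, 2 and 3. CXCL12, a chemokine, stood at 4.18, 1.12 and 0.956 CPM in shJUP 1, 2 and 3, against 0.332, 7.33 and 2.72 CPM in shNC 1, 2 and 3. MCAM, COLEC12, TLR4, and the transcription factors TCF4 and MAF were among the others. The 6 collagen chains were 17.6% of the 34 genes of this shape.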
